A study of Rattus norvegicus with 24 samples.

Results

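Livers of rats given hexachloroethane, a fully chlorinated ethane that the study's design counts as a carcinogen, were compared with livers of rats given tetracycline hydrochloride, an antibiotic that the design counts as a non-carcinogen. The comparison takes 8 of the study's 24 arrays: the 4 labelled with hexachloroethane and the 4 labelled with tetracycline hydrochloride. All 8 had been scanned on the same day. The rats were male F344, an inbred strain, with an age of 5 weeks in the labels, and were dosed by gavage once a day for 28 days. Hexachloroethane was given at 500 mg/kg/day in corn oil and tetracycline hydrochloride at 1000 mg/kg/day in water, both at 5 ml/kg. The other 16 arrays hold 4 further compounds in corn oil, namely 1,2-dichlorobenzene, monuron, 1-amino-2-methylanthraquinone and 1,2,3-trichloropropane.

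Each array held 2 RNA samples. Cy3 marked the liver RNA of 1 treated rat, and Cy5 marked RNA pooled from rats given the vehicle alone. The value of a gene is a log2 ratio of treated liver over vehicle pool, so that 1 unit is a 2-fold change, and the comparison is the mean of the 4 hexachloroethane ratios minus the mean of the 4 tetracycline ratios. Vehicle, pool and slide differ between the 2 compounds along with the compound itself, and these cannot be told apart: each compound lay on a slide of its own, and the corn oil and water pools are different RNA. A pool counts as 1 sample, and its spread enters no test.

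Foreign chemicals reach the liver first, and hepatocytes answer them through a few transcription factors. The nuclear receptors CAR and PXR raise cytochromes P450, carboxylesterases and conjugating enzymes, the aryl hydrocarbon receptor raises the Cyp1 enzymes, and Nrf2 raises enzymes that make or use glutathione. Nrf2 and its relative Nrf1 also act on genes of the proteasome, the barrel-shaped protease with regulatory caps that removes ubiquitin-tagged proteins.

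Between 67.2 and 71.7% of the probes were well above background in the treated channel of the 8 arrays, and between 70.9 and 75.9% in the vehicle channel. All 20 hepatocyte marker genes on the list were measured and lay well above background on all 8 arrays in the treated channel. The median SD between the 4 rats of a compound was 0.138 for hexachloroethane and 0.123 for tetracycline. In all, 3 arrays stood apart from the others of their compound. Over the kept probes, hexachloroethane rat 1 correlated at 0.46 to 0.49 with the other hexachloroethane rats, which reached 0.84 among themselves, and tetracycline rat 4 correlated at 0.38 to 0.46 with the other tetracycline rats. On the array of tetracycline rat 1 the paired spots of a probe disagreed, with an SD between spots of 0.229, and the deposited value lay within 0.05 of the mean of the spots for only 60.6% of probes, against at least 99.9% on the other 7 arrays. Arrays of different compounds correlated at 0.20 to 0.38.

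Of 4742 genes measured, 96 differed between the compounds at a Benjamini-Hochberg adjusted p under 0.05 in limma and by at least 2-fold, which is 2.02% of the genes. Of these, 40 (0.844% of the genes) were higher with hexachloroethane and 56 (1.18%) were lower. Counted over all 16017 kept probes, many of which have no gene name, 399 probes passed, or 2.49%. Below, a gene is called when it passed both limits. The 4 values of one compound lay wholly above or below those of the other for 76 of the 96 called genes, and for 23% of all genes. Without the 3 arrays that stood apart, 111 genes were called, 38 higher and 73 lower. When the scanner signals were reprocessed with loess, 53 genes were called, 25 higher and 28 lower, and 51 of them were among the 96. Centring on the median without loess gave 16 higher and 39 lower, and the treated channel alone gave 55 higher and 37 lower.

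In most called genes the hexachloroethane livers had moved farther from vehicle. Hexachloroethane lay farther from 0, the level of its vehicle pool, than tetracycline did from its own in 80 of the 96 called genes, and tetracycline lay farther in 16. Against the vehicle pools themselves, 109 genes were called with hexachloroethane and 27 with tetracycline. The median difference over all genes was -0.005.

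**Figure D1:**
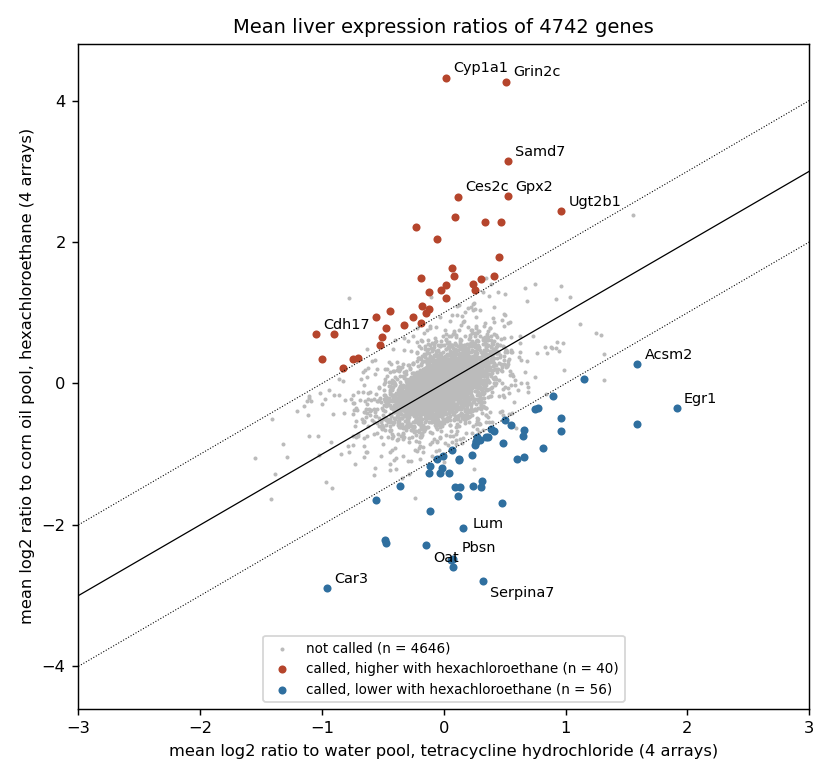
Mean log2 ratio of 4742 genes with tetracycline hydrochloride (horizontal axis) and with hexachloroethane (vertical axis), 4 arrays each. The solid line marks equal ratios and the dotted lines a 2-fold difference; the 40 red and 56 blue called genes spread farther along the vertical than along the horizontal axis.

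The drug-metabolising enzymes controlled by CAR and PXR held more genes called higher with hexachloroethane than any other of the 42 lists examined. Of 28 genes on the list 22 were measured, and 7 were called higher and 1 lower. The median difference over the 22 was 0.70, beside -0.005 over all genes, and 12 were higher and 3 lower at an adjusted p under 0.05 with no limit on size (11.2 and 12.3% of all genes passed in these directions). The mean of the 22 genes lay between 0.80 and 1.02 in the hexachloroethane livers and between -0.067 and 0.46 in the tetracycline livers, without overlap.

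The carboxylesterases Ces2c and Ces2, which split ester and amide drugs, led the group. Ces2c read 2.62, 2.27, 2.71 and 2.96 in hexachloroethane rats 1 to 4 and 0.46, 0.021, 0.23 and -0.24 in tetracycline rats 1 to 4. The difference was 2.52 ± 0.16 (SE, adjusted p = 2.54e-09). Every hexachloroethane liver stood more than 1 unit above every tetracycline liver. Ces2 gave 2.36, 2.06, 2.39 and 2.63 against 0.43, 0.033, 0.17 and -0.27, a difference of 2.27 ± 0.15 (SE, adjusted p = 3.33e-09). Ces2a, of the same family, differed by 0.99 ± 0.094 (SE, adjusted p = 4.25e-07), just short of the 2-fold limit. Ces1d, of the other main carboxylesterase family, was lower by the adjusted p alone, at -0.56 ± 0.077 (SE, adjusted p = 4.27e-05). The carboxylesterases did not move as one. Of 7 measured, 3 were higher and 3 lower at an adjusted p under 0.05, and the median difference was -0.036. The 60-base probes of Ces2c and Ces2 are shown in part because both readings were high in the same livers. The longest run they share is 12 bases, in capitals. The probes were compared only with each other, so whether transcripts of either gene bind both was not tested.
Ces2c: TTTCCAACCCCAatattttccctttctgac
Ces2: ttccaacacgcagaatccTTTCCAACCCCA

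Among the cytochromes P450, the oxidases that start the breakdown of most drugs, Cyp2b15 showed the cleanest separation. Its log2 ratios were 2.09, 1.94, 1.99 and 2.15 with hexachloroethane and 0.016, -0.045, 0.033 and -0.22 with tetracycline. The tetracycline livers therefore sat at their vehicle level, and the difference was 2.10 ± 0.12 (SE, adjusted p = 3.76e-10). Cyp2c6v1 was raised in all 8 livers but to different degrees, at 2.35, 2.11, 2.22 and 2.47 against 0.71, 0.56, 0.49 and 0.12, with a difference of 1.82 ± 0.14 (SE, adjusted p = 4.14e-08). Cyp2c37 stood at 2.33, 2.10, 2.24 and 2.45 against 0.67, 0.44, 0.43 and -0.18 and differed by 1.94 ± 0.17 (SE, adjusted p = 1.87e-07). These are the values of its brightest probe: Cyp2c37 had 5 kept probes, of which 3 were called, with differences of 0.44 to 1.95. The brightest-probe readings of Cyp2c37 and Cyp2c6v1 are not independent. The probes overlap in 41 bases, of which 40 are the same, so that transcripts of either gene could bind both. The stretch of 30 bases around the single different base, in capitals, is:
Cyp2c37: atatcgatGcaactccagttttcaatggat
Cyp2c6v1: atatcgatAcaactccagttttcaatggat

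Cyp3a23-3a1, a steroid and drug oxidase that is a textbook target of PXR, differed by 1.27 ± 0.20 (SE, adjusted p = 1.38e-04), with 1.21, 0.81, 1.02 and 1.32 against 0.003, -0.42, 0.11 and -0.42. Ugt2b1, an enzyme that attaches glucuronic acid and is counted on 3 of the lists, was above vehicle in every liver. It read 2.40, 2.54, 2.54 and 2.26 with hexachloroethane and 1.35, 0.79, 0.99 and 0.73 with tetracycline. The difference of 1.47 ± 0.15 (SE, adjusted p = 8.87e-07) was thus one between a larger and a smaller increase. The only list member called lower was Abcb1a, a drug efflux pump, at -1.11 ± 0.24 (SE, adjusted p = 0.00301), and it was not called after loess. Its treated livers differed by only -0.097 in the Cy3 channel, while its corn oil pool exceeded the water pool by 0.85 in the Cy5 channel.

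**Figure D2:**
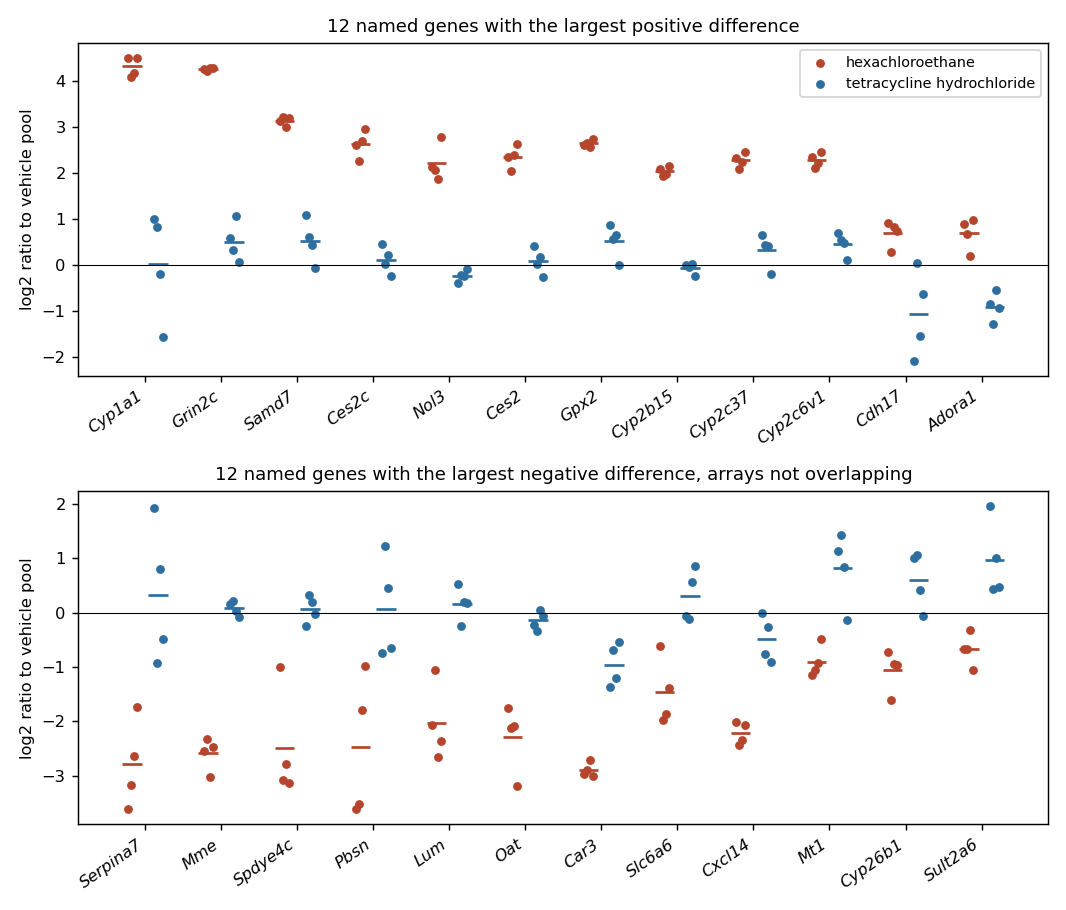
Log2 ratio to the vehicle pool on each array (points) and the mean of 4 (bars), for 12 named genes with the largest positive difference (upper panel) and 12 with the largest negative difference among genes whose arrays do not overlap (lower panel). The hexachloroethane points of Grin2c lie between 4.23 and 4.30, and those of Spdye4c include rat 1 at -0.99, apart from the other 3 rats.

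Cyp1a1, the classical target of the aryl hydrocarbon receptor, had the largest difference of the named genes in the deposited ratios. After loess Grin2c differed more, and in the treated channel Grin2c, Phgdh, Gpx2 and Cyp2b15 did. The Cyp1a1 ratios were 4.51, 4.09, 4.19 and 4.50 with hexachloroethane, tightly grouped, and 1.01, 0.82, -0.19 and -1.55 with tetracycline, spread over more than 2 units. The difference was 4.30 in the deposited ratios, 2.74 after loess and 2.84 in the treated channel. On the tetracycline arrays Cyp1a1 was well above background on 1 of 4 in the Cy3 channel and on 3 of 4 in the Cy5 channel. The probe may thus have been kept only through the hexachloroethane arrays, where it was high. Its difference is therefore given as a description against a level near background, with no p. Of 9 genes on the receptor's list 6 were measured, and Cyp1a1 alone was called. Cyp1a2, a second P450 of the family, and Nqo1, a quinone reductase that also belongs to Nrf2, were higher at 0.91 ± 0.21 (SE, adjusted p = 0.00384) and 0.76 ± 0.13 (SE, adjusted p = 5.12e-04) without reaching 2-fold.

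Among genes of glutathione defence that answer to Nrf2, those that passed the adjusted p were all higher with hexachloroethane. Of 34 list members 27 were measured, and 2 were called higher. At an adjusted p under 0.05, 12 were higher and 0 lower (1 at an unadjusted p), against 11.2 and 12.3% of all genes. The median difference of the 27 members was 0.36, and 0.089 after median centring without loess, where the median of all genes was -0.13. Gpx2, a glutathione peroxidase, read 2.62, 2.66, 2.57 and 2.74 with hexachloroethane and 0.88, 0.58, 0.67 and 0.003 with tetracycline. The ratio was above 0 in all 8 livers, though barely in tetracycline rat 4, and the difference was 2.12 ± 0.16 (SE, adjusted p = 2.28e-08), or 3.23 in the treated channel. Abcc3, an exporter of conjugated compounds and bile acids, gave 1.77, 1.30, 1.34 and 1.47 against 0.54, 0.24, 0.25 and 0.19, a difference of 1.16 ± 0.12 (SE, adjusted p = 6.81e-07). The other Abcc3 probe gave 2.95.

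The other 10 members that passed the adjusted p ranged from Gstm1 at 0.28 to Me1, malic enzyme, at 0.97, and held Gsr, glutathione reductase, at 0.62 ± 0.088 (SE, adjusted p = 6.80e-05), Gsta2 at 0.80 ± 0.19 (SE, adjusted p = 0.005) and the epoxide hydrolase Ephx1 at 0.87 ± 0.14 (SE, adjusted p = 2.34e-04). Among 17 measured glutathione transferases, 7 were higher and 2 lower at an adjusted p under 0.05, against 11.2 and 12.3% of all genes. Of the 17, Gstt3 was the 1 called. It read 1.57, 1.19, 1.25 and 1.64 against 0.78, 0.28, 0.30 and -0.40. The arrays did not overlap, but the call of 1.18 rested on tetracycline rat 4, without which the difference was 0.96 (adjusted p = 5.59e-04).

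The antioxidant response element that Nrf2 binds has the core TGACNNNGC. It was sought on both strands of the RefSeq promoter windows of the rat assembly GRCr8, from 250 bases before to 50 bases after each transcription start. It lay in 9 of 23 windows of measured Nrf2 list members (39.1%), in 3 of 20 proteasome windows (15.0%), in 3 of 27 windows of genes called higher (11.1%) and in 6 of 49 of genes called lower (12.2%), against 12.1% of all 33469 windows. The list was drawn up from known Nrf2 targets, so its share describes the list. A stretch of 60 bases upstream of 3 genes higher with hexachloroethane, with the match in capitals, is shown for the Gpx2 promoter, whose gene moved most, and for 2 of the 3 proteasome promoters with a match; their places are chr6:101230034-101230093 (minus strand), chr15:32047405-32047464 (minus strand) and chr9:94157781-94157840 (plus strand).
Gpx2: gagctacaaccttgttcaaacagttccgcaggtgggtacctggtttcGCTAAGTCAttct
Psmb5: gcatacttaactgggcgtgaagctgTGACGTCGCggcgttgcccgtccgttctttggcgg
Psmd1: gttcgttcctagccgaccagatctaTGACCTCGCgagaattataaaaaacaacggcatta
The Gpx2 match reads on the opposite strand. A match is a string of letters in a window and was not measured as a bound site.

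Subunits of the proteasome were higher with hexachloroethane almost without exception, by small and even amounts. Of 31 genes on the list 21 were measured. Called at 2-fold were 0, but 20 of 21 were higher at an adjusted p under 0.05 in limma (11.2% of all genes were higher at that level), all 21 at an unadjusted p under 0.05, and 20 of 21 after loess. The 4 hexachloroethane livers lay wholly above the 4 tetracycline livers for 20 subunits. The median difference was 0.46, with a range of 0.18 to 0.68. The treated channel alone gave 0.53, and the vehicle pools differed by a median of 0.041.

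The subunits belong to different parts of the particle. Psmd2, a scaffold of the regulatory cap, differed most: its ratios were 0.82, 1.04, 0.93 and 0.99 with hexachloroethane and 0.28, 0.20, 0.25 and 0.33 with tetracycline, a difference of 0.68 ± 0.080 (SE, adjusted p = 6.63e-06). Psma1, of the outer ring of the core, gave 0.55, 0.62, 0.48 and 0.53 against -0.042, -0.15, -0.088 and -0.17, or 0.66 ± 0.074 (SE, adjusted p = 4.35e-06). Psmb5, which carries the chymotrypsin-like active site, gave 0.29, 0.37, 0.27 and 0.26 against -0.057, -0.12, -0.023 and -0.017, or 0.35 ± 0.067 (SE, adjusted p = 8.95e-04). All of these stood above vehicle in every hexachloroethane liver, whereas Psma1 and Psmb5 were at or slightly below vehicle with tetracycline. Psma6, also of the outer ring, was the 1 subunit that did not pass the adjusted p, at 0.18 ± 0.075 (SE, adjusted p = 0.0938). The interferon-induced variants, which replace core subunits during immune responses, did not pass: Psmb8 differed by -0.079 (adjusted p = 0.708) and Psmb9 by 0.093 (adjusted p = 0.78), with 95% confidence intervals of -0.36 to 0.20 and -0.33 to 0.51.

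Averaged over the 21 subunits, hexachloroethane rats 1 to 4 stood at 0.51, 0.61, 0.48 and 0.53, and tetracycline rats 1 to 4 at 0.13, 0.038, 0.10 and 0.10. All 21 subunits were above 0 on each of the 4 hexachloroethane arrays, against 13 to 16 on the tetracycline arrays. On other scan days and slides, the mean lay between 0.26 and 0.32 with monuron, between 0.14 and 0.44 with 1-amino-2-methylanthraquinone, between 0.011 and 0.20 with 1,2-dichlorobenzene and between -0.11 and -0.011 with 1,2,3-trichloropropane. No array of another compound reached the lowest hexachloroethane array. Without the 3 arrays that stood apart, 19 of 21 subunits passed. With median centring in place of loess 1 of 21 passed: the median difference was then 0.18, which is 0.31 above the median of all genes on that scale.

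**Figure D3:**
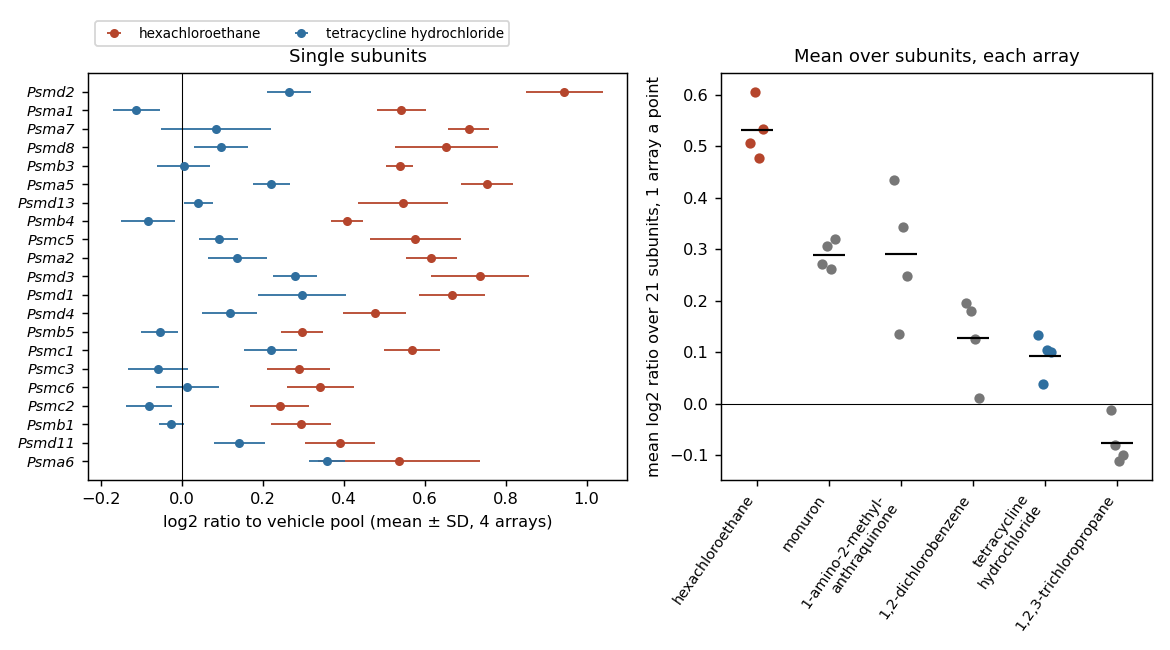
Left, log2 ratio of 21 proteasome subunits to the vehicle pool, mean ± SD of 4 arrays for hexachloroethane and tetracycline hydrochloride; right, the mean over the 21 subunits on each of the 24 arrays (points) and per compound (bars). The 4 hexachloroethane arrays lie between 0.48 and 0.61 and the tetracycline arrays between 0.038 and 0.13.

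Several of the largest positive differences fell outside the drug-metabolism lists. Grin2c, a subunit of the NMDA glutamate receptor, read 4.26, 4.23, 4.28 and 4.30 with hexachloroethane and 0.59, 0.32, 1.07 and 0.061 with tetracycline. Its 4 hexachloroethane values were nearly identical, and the difference was 3.76, or 3.74 after loess and 5.79 in the treated channel. On the tetracycline arrays Grin2c was well above background on 2 of 4 in the Cy3 channel and on 3 of 4 in the Cy5 channel. Like Cyp1a1 it may have been kept only through the hexachloroethane arrays, so its difference is a description with no p. The vehicle channel differed as well: the Cy5 signal of its pool averaged 8.66 ± 0.29 (SD, n = 4) on the hexachloroethane slide and 6.60 ± 0.10 on the tetracycline slide, and between 6.69 and 7.41 on the slides of the other 4 corn oil compounds. The part of this in the ratio was not tested.

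Samd7, a SAM-domain protein known from photoreceptors, gave 3.13, 3.22, 3.01 and 3.21 against 1.10, 0.62, 0.45 and -0.063, a difference of 2.62 ± 0.24 (SE, adjusted p = 1.87e-07). Nol3, an inhibitor of cell death, gave 2.14, 2.06, 1.89 and 2.79 against -0.38, -0.22, -0.22 and -0.085; its difference of 2.44 ± 0.25 (SE, adjusted p = 9.11e-07) fell to 1.51 after loess, more than 1.5 times smaller, and 1 of the 4 tetracycline arrays was not well above background. Anxa7, an annexin that binds membranes in the presence of calcium, was above vehicle by 1.63 ± 0.087 (SD, n = 4) with hexachloroethane and by 0.071 ± 0.093 with tetracycline. Zdhhc2, a palmitoyltransferase, stood at 1.52 ± 0.15 and 0.085 ± 0.26. Both differed, at 1.56 ± 0.13 (SE, adjusted p = 5.54e-08) and 1.43 ± 0.16 (SE, adjusted p = 4.78e-06), and in neither did the arrays overlap.

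The means of the compounds lay on opposite sides of vehicle in 63 of the 96 called genes, and 13 of these passed the adjusted p against vehicle on both sides. A mean close to 0 counts on whichever side it falls. The share over all genes was not counted, so neither number can be read as more than a description. Cdh17, the liver-intestine cadherin, read 0.92, 0.30, 0.82 and 0.76 with hexachloroethane and -2.07, 0.040, -1.54 and -0.63 with tetracycline, which ranged over 2 units. The difference of 1.75 ± 0.46 (SE, adjusted p = 0.0107) was not called without the 3 arrays that stood apart (1.38, adjusted p = 0.112). Adora1, the adenosine A1 receptor, gave 0.90, 0.69, 0.21 and 0.99 against -0.84, -1.29, -0.53 and -0.94, positive in 4 of 4 hexachloroethane and negative in 4 of 4 tetracycline livers. It passed against vehicle in both directions and differed by 1.59 ± 0.24 (SE, adjusted p = 1.36e-04). Slc39a4, an importer of zinc, showed the same opposition at 0.91, 0.80, 0.83 and 0.79 against -0.60, -0.034, -0.52 and -0.16, with a difference of 1.16 ± 0.14 (SE, adjusted p = 1.03e-05).

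Asns and Phgdh, which make asparagine and start serine synthesis and are raised by the stress factor ATF4, were higher on average but not in every liver. Asns read 0.61, 2.44, 1.84 and 2.28 with hexachloroethane and 0.29, 0.75, 0.19 and 0.58 with tetracycline. Phgdh read -0.27, 2.41, 1.86 and 2.07 against 0.60, 0.23, 0.27 and 0.54. In both genes hexachloroethane rat 1 overlapped the tetracycline livers, while rats 2 to 4 were far above them. The differences were 1.34 ± 0.31 (SE, adjusted p = 0.00455) and 1.11 ± 0.39 (SE, adjusted p = 0.0463). Phgdh lost its call on leaving out any single array other than hexachloroethane rat 1 (differences of 0.81 to 1.17, adjusted p of 0.065 to 0.174), and without that rat the difference was 1.70 (adjusted p = 2.90e-05). In the treated channel Phgdh differed by 3.38 (adjusted p = 1.26e-05), more than in the ratio, and the corn oil pool also exceeded the water pool, by 2.27. Of 34 ATF4-related genes 21 were measured, with a median of 0.34. In limma, 8 were higher and 0 lower at an adjusted p under 0.05, against 11.2 and 12.3% of all genes. At an unadjusted p under 0.05, 1 was lower. The 8 include Atf4 itself, at 0.46 ± 0.16 (SE, adjusted p = 0.0405), and both Gars and Gars1, names that may stand for 1 gene.

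Serpina7, thyroxine-binding globulin, the blood carrier of thyroid hormone, showed the largest negative difference among named genes in the deposited ratios. Its ratios were -3.62, -3.17, -2.64 and -1.75 with hexachloroethane and 1.92, -0.94, 0.80 and -0.49 with tetracycline. All 4 hexachloroethane livers were far below vehicle, and the tetracycline livers scattered on both sides of it. The difference was -3.12 ± 0.56 (SE, adjusted p = 6.03e-04), with a 95% confidence interval of -4.29 to -1.94. In the treated channel it was -1.48 (adjusted p = 0.0227), smaller in size than for Mt1, Oat, Spdye4c, Egr1, Slc6a6, Car3 and Slc1a2. Slc16a10, a transporter of thyroid hormone and aromatic amino acids, gave -0.90, -1.22, -0.86 and -1.80 against 0.22, -0.013, 0.17 and -0.44 and differed by -1.18 ± 0.30 (SE, adjusted p = 0.00809), but was not called after loess (-0.81) or without hexachloroethane rat 4 (-0.98). These were the only 2 called of 11 measured thyroid-related genes.

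Genes under the growth hormone and STAT5 axis, which sets sex differences in rodent liver, were lower with hexachloroethane where they passed. Of 16 measured, 2 were called lower (Serpina7 and Gadd45g, the latter not in the treated channel). At an adjusted p under 0.05, 5 were lower and 0 higher, against 12.3 and 11.2% of all genes. At an unadjusted p under 0.05, 0 were higher as well. The list median was -0.48 beside -0.005 over all genes, or -0.32 after loess and -0.16 in the treated channel alone. Ghr, the growth hormone receptor, and Stat5b differed by -0.22 ± 0.076 (SE, adjusted p = 0.0449) and -0.22 ± 0.077 (SE, adjusted p = 0.0474). The male-biased genes split. Pbsn, probasin, an androgen-dependent protein, read -3.62, -3.53, -1.79 and -0.99 with hexachloroethane and -0.75, 1.23, 0.46 and -0.64 with tetracycline. Its spread was wide in both groups, and the difference was -2.55 ± 0.63 (SE, adjusted p = 0.00644), against -1.53 after loess and -0.98 (adjusted p = 0.133) in the treated channel.

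Car3, carbonic anhydrase of liver and muscle, was below vehicle with both compounds, at -2.97, -2.90, -2.72 and -3.01 and -1.38, -0.69, -1.21 and -0.54. Hexachloroethane took it lower in every liver, by -1.94 ± 0.30 (SE, adjusted p = 1.30e-04). Of 16 measured male-biased genes, 2 were called lower and 1 higher, the latter Ugt2b1. The bile acid and steroid carrier Slco1a1 and the male-specific P450 Cyp3a18 were lower at -0.73 ± 0.10 (SE, adjusted p = 6.46e-05) and -0.75 ± 0.13 (SE, adjusted p = 3.36e-04), while Cyp2c11, the main male P450, differed by 0.29 ± 0.23 (SE, adjusted p = 0.396). Female-biased genes gave 3 called lower of 15, but their median of -0.28 became 0.046 in the treated channel alone.

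A set of 3 genes of the hepatocytes next to the central vein, which capture ammonia and glutamate, were called lower with hexachloroethane. Oat, ornithine aminotransferase, read -1.76, -2.13, -2.08 and -3.18 against -0.24, -0.33, 0.054 and -0.066, a difference of -2.15 ± 0.41 (SE, adjusted p = 9.65e-04). Glul, glutamine synthetase, gave -1.52, -1.36, -1.17 and -1.02 against -0.004, -0.30, 0.13 and 0.045, and Slc1a2, a glutamate transporter, gave -1.42, -1.62, -1.48 and -1.33 against 0.12, 0.089, 0.079 and 0.069. In all 3 genes the tetracycline livers lay close to vehicle and every hexachloroethane liver lay at least 1 unit below it. The differences of Glul and Slc1a2 were -1.24 ± 0.12 (SE, adjusted p = 4.52e-07) and -1.55 ± 0.22 (SE, adjusted p = 5.64e-05). The wider list did not move as one: of 14 measured, 3 were called lower and 1 higher, the median was -0.16, and Cyp2e1 differed by -0.49 ± 0.18 (SE, adjusted p = 0.058).

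The perivenous gene called higher was Ldhd, D-lactate dehydrogenase, at -0.068, 0.54, 0.76 and 0.96 against -0.45, -0.44, -0.36 and -0.84. Its difference of 1.07 was not called after loess (0.90), without hexachloroethane rat 4 (0.93) or without tetracycline rat 4 (0.96). Of 21 measured periportal genes, limma called 0; 1 was higher and 3 lower at an adjusted p under 0.05, and 1 was higher and 4 lower at an unadjusted p under 0.05.

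Mme, neprilysin, a peptidase of the cell surface, gave -2.54, -2.32, -3.04 and -2.47 against 0.16, 0.21, 0.027 and -0.076. The difference of -2.67 ± 0.22 (SE, adjusted p = 8.78e-08) fell to -1.72 after loess and to -0.91 (adjusted p = 7.24e-04) in the treated channel, where it was no longer called. Spdye4c, a gene of the speedy family of cell cycle regulators, gave -0.99, -3.08, -2.80 and -3.13 against -0.25, 0.31, 0.20 and -0.025, with hexachloroethane rat 1 apart from the other 3. Its difference was -2.56 ± 0.32 (SE, adjusted p = 1.53e-05). Slc6a6, the taurine transporter, was lower with hexachloroethane at -0.62, -1.98, -1.87 and -1.39 against -0.066, -0.11, 0.56 and 0.86, or -1.77 ± 0.31 (SE, adjusted p = 3.94e-04).

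Mt1, Egf and Il33 were among the 13 genes that passed against vehicle on both sides, below it with hexachloroethane and above it with tetracycline. Mt1, metallothionein, a metal-binding protein that the acute phase response also raises, read -1.16, -1.06, -0.93 and -0.49 with hexachloroethane and 1.13, 1.43, 0.83 and -0.14 with tetracycline. The difference was -1.72 ± 0.38 (SE, adjusted p = 0.00305), or -2.65 in the treated channel, and 2 of its 3 probes were called, with a range of -1.73 to -0.66. Of the 31 measured acute phase genes, Mt1 alone was called. At an adjusted p under 0.05, 6 were lower and 0 higher (7 and 0 at an unadjusted p), against 12.3 and 11.2% of all genes. Cyp26b1, which degrades retinoic acid, gave -0.74, -1.62, -0.94 and -0.96 against 1.00, 1.07, 0.42 and -0.069, or -1.67 ± 0.35 (SE, adjusted p = 0.00221). Egf, epidermal growth factor, gave 0.14, -1.10, -0.88 and -0.85 against 0.54, 0.34, 0.45 and 0.32; hexachloroethane rat 1 was the highest of its group, and the call of -1.08 was lost without hexachloroethane rat 2 (-0.94). Il33, an alarm cytokine, gave -0.42, -0.47, -0.43 and -0.76 against 0.72, 0.11, 0.73 and 0.44, and its call of -1.02 was lost without hexachloroethane rat 4 (-0.94), tetracycline rat 1 (-0.95) or tetracycline rat 3 (-0.95). The arrays did not overlap for Mt1, Cyp26b1, Egf or Il33.

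Markers of other liver cells were compared too; in whole liver, fewer cells of a type and less RNA per cell cannot be told apart. Lum and Dcn, proteoglycans of fibroblasts and stellate cells, had lower ratios with hexachloroethane. Lum read -2.07, -1.07, -2.65 and -2.37 against 0.52, -0.25, 0.19 and 0.18, a difference of -2.20 ± 0.41 (SE, adjusted p = 8.31e-04) that fell to -1.07 after loess. In the treated channel Lum differed by only -0.32 (adjusted p = 0.215), while the corn oil pool exceeded the water pool by 0.75. Dcn gave -1.18, -0.69, -1.13 and -0.78 against 0.47, -0.097, -0.19 and 0.076, or -1.01 ± 0.17 (SE, adjusted p = 3.76e-04). Its call was lost after loess (-0.90) and without hexachloroethane rat 1 (-0.93), hexachloroethane rat 3 (-0.95) or tetracycline rat 1 (-0.87). The other 15 of 17 measured stellate and fibrosis markers did not pass the adjusted p, among them Col1a1 at 0.025 ± 0.17 (SE, adjusted p = 0.935), and the list median was 0.025.

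Hepatocyte markers gave 0 called of 20. At an adjusted p under 0.05 in limma, 5 were lower and 1 higher (8 and 1 at an unadjusted p), against 12.3 and 11.2% of all genes. Their median difference was -0.14, with array means of -0.28 to -0.247 in hexachloroethane and -0.138 to -0.081 in tetracycline livers. Of 6 measured endothelial markers 0 were called, and 4 were lower at an adjusted p under 0.05, against 12.3% of all genes. The 4 were Kdr at -0.45 ± 0.093 (SE, adjusted p = 0.00187), Pecam1 at -0.36 ± 0.098 (SE, adjusted p = 0.0127), Lyve1 at -0.36 and Flt1 at -0.32. Macrophage markers gave 0 called of 10 (1 lower at an adjusted and at an unadjusted p under 0.05), with array means of -0.59 to 0.23 in hexachloroethane and -0.19 to -0.006 in tetracycline livers. Lymphocyte markers gave 0 called of 13 (1 lower at an adjusted p and 3 at an unadjusted p under 0.05). Of 16 neutrophil markers 2 were measured. The called one, S100a8, read -0.24, 0.42, 0.58 and 0.63 against -0.91, -0.46, -0.50 and -1.10. Its difference of 1.09 ± 0.36 (SE, adjusted p = 0.0353) was not called after loess (0.43) or without hexachloroethane rat 2 (1.07), 3 (1.01) or 4 (1.00) or tetracycline rat 1 (1.03) or 4 (0.97), with adjusted p of 0.0784 to 0.0914, and was 0.33 in the treated channel. Cxcl14, a chemokine, was below vehicle with both compounds at -2.02, -2.43, -2.34 and -2.07 and -0.006, -0.76, -0.26 and -0.91, and differed by -1.73 ± 0.24 (SE, adjusted p = 4.99e-05), or -1.04 after loess.

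Immediate early genes, which respond within minutes to handling and sampling as well as to growth signals, varied from rat to rat. Egr1, a transcription factor, read -0.94, -0.82, -1.29 and 1.66 with hexachloroethane and 2.55, 2.19, 1.93 and 0.97 with tetracycline. Hexachloroethane rat 4 overlapped the tetracycline livers, and the difference was -2.26 ± 0.54 (SE, adjusted p = 0.00519). Dusp1, a phosphatase of MAP kinases, gave -2.0, -0.19, -2.32 and -2.25 against 0.52, 0.54, 1.10 and -0.25, where hexachloroethane rat 2 overlapped, and differed by -2.17 ± 0.47 (SE, adjusted p = 0.00257). Gadd45g gave -2.32, -1.29, -2.87 and -2.52 against 0.29, -1.32, 0.040 and -0.90, again with overlap; its call of -1.78 ± 0.56 (SE, adjusted p = 0.0284) was lost without tetracycline rat 1 (-1.52) or 3 (-1.61) or hexachloroethane rat 3 (-1.57) or 4 (-1.69), with adjusted p of 0.0685 to 0.0882. For Gadd45g the treated livers differed by -0.75 (adjusted p = 0.317) and the pools by 1.00. For Dusp1 these values were -1.16 (adjusted p = 0.0416) and 0.96.

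Gadd45b, which CAR also raises, was higher at 1.16, 0.59, 0.93 and 0.74 against 0.12, 0.14, -0.24 and -0.78, but its difference of 1.05 fell below 2-fold after loess (0.70), without hexachloroethane rat 1 (0.95, adjusted p = 0.00946) and without tetracycline rat 4 (0.85, adjusted p = 0.0165). Npas2, a relative of Clock, was the only called gene of 13 measured circadian genes. It gave -0.083, -1.13, -1.08 and -0.70 against 0.19, 0.23, 0.35 and 0.34. Its call of -1.03 was lost after loess (-0.68) and without hexachloroethane rat 2 (-0.90) or 3 (-0.92). The other clock genes at an adjusted p under 0.05 were Nr1d1 and Bmal1, lower at -0.48 and -0.28, and Per1 and Tef, higher at 0.68 and 0.33. After loess 0 of the 13 were higher at that level, so Per1 and Tef no longer passed, and 3 were lower. The hour of sampling is not given in the sources used here.

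Because each ratio holds a treated liver and a pool, the channels were also taken apart. Over the 96 called genes, the treated channel differed in the direction of the ratio in 91, and by at least 2-fold in 46. In 18 called genes the corn oil and water pools differed by more than the treated livers did, and in 1557 of all 4742 genes. By that measure alone this was no more common among the called genes. Large pool differences were more common among them: the pools differed by at least 2-fold in 9 of the 96 called genes and in 28 of all 4742. These channel means carry no test, apart from the fit on the treated channel named below.

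The sulfotransferases Sult2a6 and Sult2a2, which conjugate steroids and bile acids, were among the 18. Sult2a6, named Smp2a on the array, had ratios of -0.66, -0.67, -0.32 and -1.06 with hexachloroethane and 1.95, 0.44, 1.00 and 0.47 with tetracycline, a difference of -1.64 ± 0.24 (SE, adjusted p = 8.64e-05). Yet the treated livers of the compounds had almost the same Cy3 signal, 13.40 ± 0.33 (SD, n = 4) and 13.32 ± 0.48 in log2 units. The Cy5 signal of the pool was 14.03 ± 0.03 on the hexachloroethane slide and 12.38 ± 0.20 on the tetracycline slide. The pools on the slides of the other 4 compounds, also corn oil, lay between 12.92 and 13.41. Sult2a2 repeated this, with a ratio difference of -1.46 ± 0.25 (SE, adjusted p = 3.74e-04), a treated difference of 0.14 and a pool difference of 1.48.

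Both sulfotransferase calls thus changed sign in the treated channel, to 0.082 for Sult2a6 (adjusted p = 0.775) and 0.144 for Sult2a2 (adjusted p = 0.683). Their probes join end to start, with a shared run of 13 bases in capitals, and both genes belong to 1 family, whose transcripts the probes may share:
Sult2a6: GGAACTGATTCTTcctggttttactttcat
Sult2a2: agcctcatggagaaGGAACTGATTCTTact
Acsm2, a medium-chain acyl-CoA synthetase, gave a like pattern. Its ratios were 0.17, 0.40, 0.14 and 0.38 with hexachloroethane and 2.46, 1.45, 1.78 and 0.67 with tetracycline, a difference of -1.32 ± 0.27 (SE, adjusted p = 0.00167). The treated livers differed by 0.23 (adjusted p = 0.488) and the pools by 1.49. Acsm5 and Letmd1, also called lower at -2.16 and -1.10, reversed further. Their treated livers differed by 1.32 and 0.65 and their pools by 3.36 and 1.24.

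Other conjugating and oxidising enzymes kept their direction in the treated livers. Fmo5, a flavin monooxygenase, gave -0.27, -0.96, -0.83 and -0.57 against 1.40, 0.47, 0.95 and -0.18, a difference of -1.32 ± 0.24 (SE, adjusted p = 5.60e-04), with -0.95 in the treated channel. Fmo1 gave -0.85, -1.17, -0.89 and -0.37 against 0.55, 0.011, 0.52 and -0.032; its difference of -1.08 fell just below 2-fold without tetracycline rat 1 (-0.99), tetracycline rat 3 (-0.997) or hexachloroethane rat 2 (-0.97), and was -1.20 in the treated channel. Sult1c2 was lower in every hexachloroethane liver, at -1.36, -1.23, -1.40 and -1.82 against -0.27, -0.29, -0.38 and -0.49; its difference of -1.10 was not called after loess (-0.81) or without hexachloroethane rat 4 (-0.97), and was -0.55 in the treated channel.

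**Figure D4:**
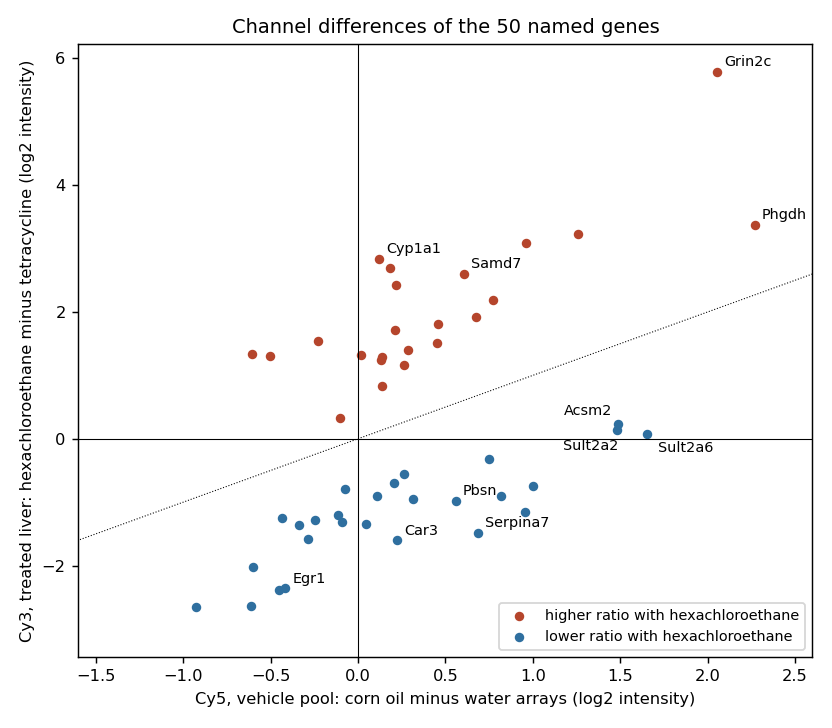
Difference of the treated livers in the Cy3 channel (vertical axis) against the difference of the vehicle pools in the Cy5 channel (horizontal axis) for the 50 named genes, in log2 intensity; on the dotted line both are equal. Sult2a6, Sult2a2 and Acsm2 lie near 0 on the vertical and between 1.48 and 1.65 on the horizontal axis.

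The other 4 compounds, scanned on other days, place these values among all 6, as a description without a test. Of the 23 named genes higher with hexachloroethane, its mean ratio was the highest of all 6 compounds in 14, and tetracycline was the lowest in 17. Of the 27 lower genes, hexachloroethane was the lowest of 6 in 18 and tetracycline the highest in 9. These genes were chosen for a large difference between hexachloroethane and tetracycline, so the ranks follow in part from that choice. The mean of Cyp1a1 was also above vehicle with the 4 others, between 1.23 and 5.92, but partly against pools near background. The lowest, 1.23 ± 1.30 (SD, n = 4), was that of 1,2,3-trichloropropane. There Cyp1a1 was well above background on 2 of 4 arrays in the treated channel and 1 of 4 in the pool channel. The pool was well above background on 1 of 4 monuron and 0 of 4 1,2-dichlorobenzene arrays. For Ces2c the other means lay between 0.26 and 1.49, below the 2.64 of hexachloroethane, and for Serpina7 between -0.39 and 2.05, above its -2.79. Pbsn ranged from -0.67 to 1.58 in the others and Oat from -3.79 to -1.15, so Oat was not lowest with hexachloroethane.

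**Figure D5:**
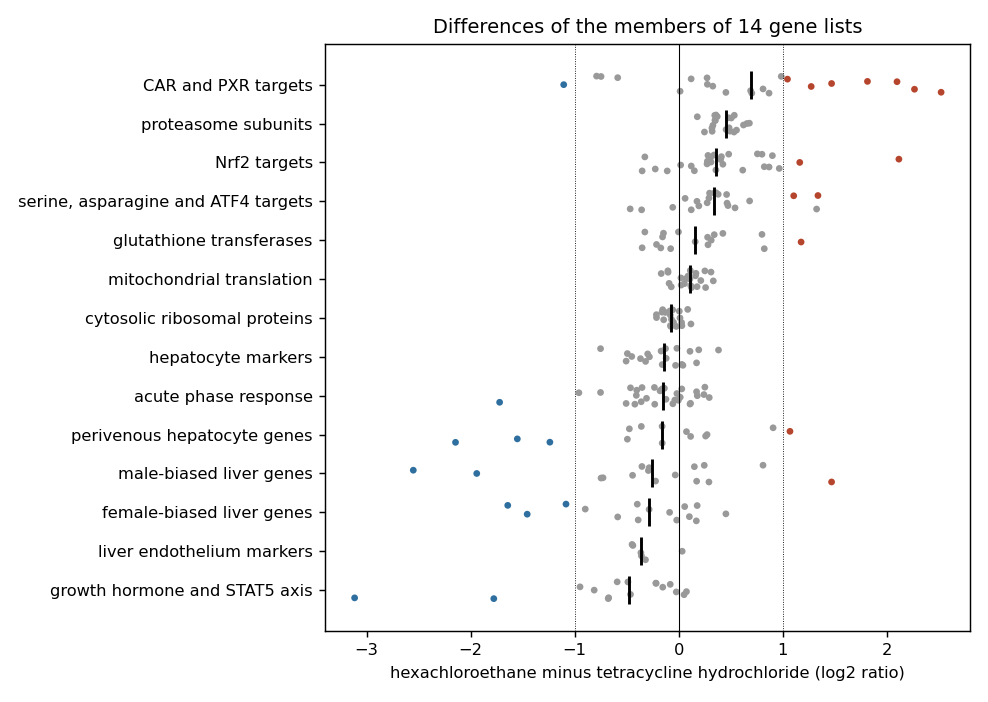
Difference between the compounds (log2 ratio) for each measured member of 14 gene lists (points; red called higher and blue called lower with hexachloroethane, grey not called) and the median of the list (bars); dotted lines mark 2-fold. The proteasome subunits lie close together between 0.18 and 0.68, and the CAR and PXR targets spread from -1.11 to 2.52.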

How the data were processed

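Liver RNA of 24 treated rats was hybridised to 2-colour Agilent arrays. The spot intensities, log10 ratios and flags were written by Agilent Feature Extraction 9.1.3.1 with background subtraction and dye normalization, per the file headers and the submitters' processing notes. The authors deposited log2 ratios of treated over vehicle RNA in the series table; set against the scanner log ratios, they have the same scale and direction and are not centred. These log2 ratios were the main values because the comparison was defined on them. Normexp (offset 50) with loess was the first alternative.

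Probes were kept when well above background in either channel on all 4 arrays of hexachloroethane or of tetracycline hydrochloride: 16017 of 21900. Of all probes, 9733 had a symbol that is not provisional, and a gene is its brightest kept probe. The model was limma 3.58.1 (R 4.3.3; lmFit, eBayes) over 24 arrays with 1 mean per compound and 18 residual degrees of freedom; p-values were Benjamini-Hochberg adjusted over all kept probes. The channel values followed normexp, loess and Aquantile. On simulated data for this comparison over 16017 probes, 94 of 100 shifts of 1.5 and 99 of 100 of 2.5 were called, with 0 false calls. The simulated noise of a probe had the same spread on every array, with no pool or slide difference and no outlying array. It therefore does not give the rate of false calls in the real data. No depth is defined for arrays; the 4 arrays per compound limit the precision.

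Named genes were called in both fits in the same direction without overlap (the 15 largest each way, then the 6 largest each way with tetracycline farther from 0 and those with both compounds past the adjusted p on opposite sides), plus up to 4 called members of each list. Other genes named were chosen after their values were seen. The comparison, rules and lists were chosen with earlier results of these data known. Alternatives changed the values, centring, filter, arrays, replicate block, channel and probe rule, and left out single arrays; leaving out 3 arrays together was added after seeing the data. Promoters are RefSeq's, of GRCr8. Microarray names were updated by symbol, accession or gene ID.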

Additional observations from a re-analysis of the deposited data

Results flagged for a closer look

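For each of the 50 named genes, the 4 values of each compound were tested for 1 array far from the other 3 by Dixon's gap ratio at the 95% level. Of 100 groups tested, 4 were flagged, all with hexachloroethane; chance flags about 1 in 20 groups. Spdye4c read -0.994 in hexachloroethane rat 1 against -3.133 to -2.796 in the other 3 rats. Il33 read -0.761 in rat 4 against -0.470 to -0.419. Egr1 read 1.657 in rat 4 against -1.293 to -0.821, the only hexachloroethane liver above vehicle for this gene. Dusp1 read -0.186 in rat 2 against -2.322 to -2.0. Only 1 of the 4 flags fell on rat 1, the array that correlated least with the others of its compound.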

How the results depend on the processing

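The main fit called 399 probes and 96 genes, and 20 of 21 proteasome subunits passed the adjusted p. With normexp and loess 164 probes and 53 genes were called, and with normexp and median centring 159 probes, 55 genes and 1 subunit. Requiring both channels above background on all 8 arrays gave 258 probes. The other planned settings (scanner log ratio, centred table, no filter, 8 arrays only, treated channel, and for genes the median over probes) kept the counts within 1.5 times, with 87 to 98 genes. Leaving out 1 array at a time gave 324 to 591 probes, 84 to 123 genes and 20 to 20 subunits; the highest counts came without hexachloroethane rat 1 (178 probes higher and 413 lower). The 8 arrays with a replicate block gave 201 probes, 48 genes and 9 subunits, but equal replicate numbers showed no pairing (correlations of -0.032, -0.096, -0.106 and -0.051). In the treated channel Sult2a6, Sult2a2 and Acsm2 turned to 0.082, 0.144 and 0.230, and 36 of the 50 named genes kept their call; with loess 43 did, and with median centring 38. Without the 3 arrays that stood apart 44 did; Cdh17, Il33, Gadd45g, Gadd45b, Dcn and S100a8 did not. The cause of these changes was not tested. Signals near background limit Cyp1a1, Grin2c and Nol3 in the tetracycline livers.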

Other observations

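Slc10a1, Slco1a4 and Abcb11, bile acid carriers of the hepatocyte surface, were lower with hexachloroethane than with tetracycline, below 2-fold. Of 20 measured genes of bile acid synthesis and transport, 6 were lower and 1 higher at an adjusted p under 0.05 in limma. All genes gave 12.3% lower and 11.2% higher at that level. Slc10a1, the sodium-dependent importer of bile acids, differed by -0.56 ± 0.07 (SE, adjusted p = 1.28e-05), Slco1a4 by -0.79 ± 0.10 and the canalicular export pump Abcb11 by -0.67 ± 0.19 (adjusted p = 0.0158). Each lay above vehicle on average with tetracycline and below it with hexachloroethane: Slc10a1 at 0.38 and -0.18, Slco1a4 at 0.35 and -0.44, and Abcb11 at 0.54 and -0.14. Abcc3, which also exports bile acids, was the 1 higher.

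In genes of DNA replication and of mitochondrial translation, a process whose ribosomes tetracyclines are known to inhibit, the members that passed were higher. All genes gave 11.2% higher at an adjusted p under 0.05, a share that the cell cycle list hardly exceeded. Of 24 measured cell cycle genes, 3 were higher and 0 lower in limma (5 and 0 at an unadjusted p under 0.05). The 3 were Mcm2 at 0.62, Mcm5 at 0.89 and Gins1 at 0.59, and after loess 1 passed. The list median was 0.41, but its array means overlapped, at -0.054 to 0.19 with hexachloroethane and -0.73 to 0.22 with tetracycline. Of 22 measured genes of mitochondrial translation, 5 were higher and 0 lower (8 and 1 at an unadjusted p), from Mrpl21 at 0.21 to Mrps18a at 0.33; after loess 3 passed, and the list median of 0.11 turned to -0.085 with median centring, where the median of all genes was -0.126. Among 16 p53 targets, 4 were higher, among them Phlda3 at 0.68 and the pro-death gene Bbc3 at 0.56, and 1 was lower, Ei24 at -0.19. Cytosolic ribosomal proteins gave 0 of 20 at an adjusted p in either direction (0 higher and 4 lower at an unadjusted p), and interferon response genes 0 of 20 (1 and 1). The acute phase genes below vehicle with hexachloroethane included the fibrinogen chains Fga and Fgb, which differed by -0.75 and -0.51.

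Of the 42 lists, 23 held 0 called members among 362 measured. Of the 362, 50 were higher and 24 lower at an adjusted p under 0.05, against 11.2 and 12.3% of all genes. At an unadjusted p under 0.05 the counts were 69 and 47. Fatty acid oxidation gave 2 higher and 2 lower of 27, and cholesterol synthesis 1 and 1 of 19, at an adjusted p. Markers of pancreatic acinar cells gave 0 of 3 at an adjusted and at an unadjusted p, adipocyte markers 0 higher and 2 lower of 6, bile duct markers 2 higher and 0 lower of 9, and red blood cell precursor markers 2 higher and 0 lower of 7. Cacnb2 and Nf1 were the only called genes with other kept probes on the other side of 0.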
